A study of Thermothelomyces thermophilus with 14 samples.

Results

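Genes that stood high in mycelium of Myceliophthora thermophila without a carbon source, and low with each sugar given on plates, were 23 of the 9110 genes counted. They were chosen from their own values: the lower of the 2 libraries without carbon had to reach at least 10 CPM and at least 4 times the highest of the 8 sugar libraries on plates, with sugar values under 0.5 CPM set to that floor. CPM is the count scaled to a common library size, after adjusting the libraries with edgeR's trimmed mean of M-values (TMM), and they are not divided by gene length, so values are compared within a gene only. The high level without carbon and the low level with sugar are therefore how the genes were picked, and no test of that difference is given.

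M. thermophila is a thermophilic filamentous fungus that lives on plant biomass. All 14 libraries came from mycelium of the wild-type strain ATCC 42464, grown beforehand and harvested 4 h after transfer to 1× Vogel's salts with the carbon source named, 2 libraries per group. In 5 mL cultures in round-bottomed 24-well plates the medium held no carbon (NoCarbon2), 2% cellobiose (G2), 2% xylobiose (X2), 2% of each disaccharide (G2X2), or 1% glucose with 1% xylose (GX). In 100 mL cultures in 250 mL Erlenmeyer flasks it held 2% xylan (Xylan), or 1% Avicel, a microcrystalline cellulose, with 1% xylan (XA). The disaccharide mixture thus held more sugar in total than each other sugar group on plates. No group without carbon was grown in flasks. Whether the 2 libraries of a group are separate cultures is not stated in the labels, and p-values then cover only library-to-library spread, possibly technical.

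As background, a filamentous fungus that runs out of sugar leaves carbon catabolite repression, the state in which a preferred sugar keeps many genes for other foods silent. Starved hyphae are known to recycle their own material through autophagy and to secrete enzymes that act on polymers, proteins and lipids outside the cell. The files and the reference gene table give no product name for any of the 23 genes, so no role is assigned to them here, and no list of pathway genes or markers of mycelium could be matched.

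Each library held between 17992946 and 25254924 counts. Replicate libraries correlated across genes, on log2(CPM + 1), at r from 0.968 (NoCarbon2, the lowest) to 0.996 (XA). All 23 genes passed the filter on low counts that left 8567 genes for testing.

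Together the 23 genes took 0.903% and 1.40% of all counts in the NoCarbon2 libraries. In the other 12 libraries their share ran from 0.0212% to 0.136%. Their summed level was 7963 and 11777 CPM without carbon. It was 389 and 386 CPM with cellobiose, 936 and 1028 CPM with xylobiose, 252 and 216 CPM with both disaccharides, and 617 and 1156 CPM with glucose and xylose. In flasks the sum was 722 and 496 CPM with xylan and 785 and 787 CPM with Avicel plus xylan. The sum was thus lowest with the mixture of disaccharides and highest without carbon, with no overlap between either and the rest. It is weighted towards the genes with the highest CPM, such as Mycth_112362 with 1488 and 2066 CPM without carbon, and does not describe each gene.

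**Figure D1:**
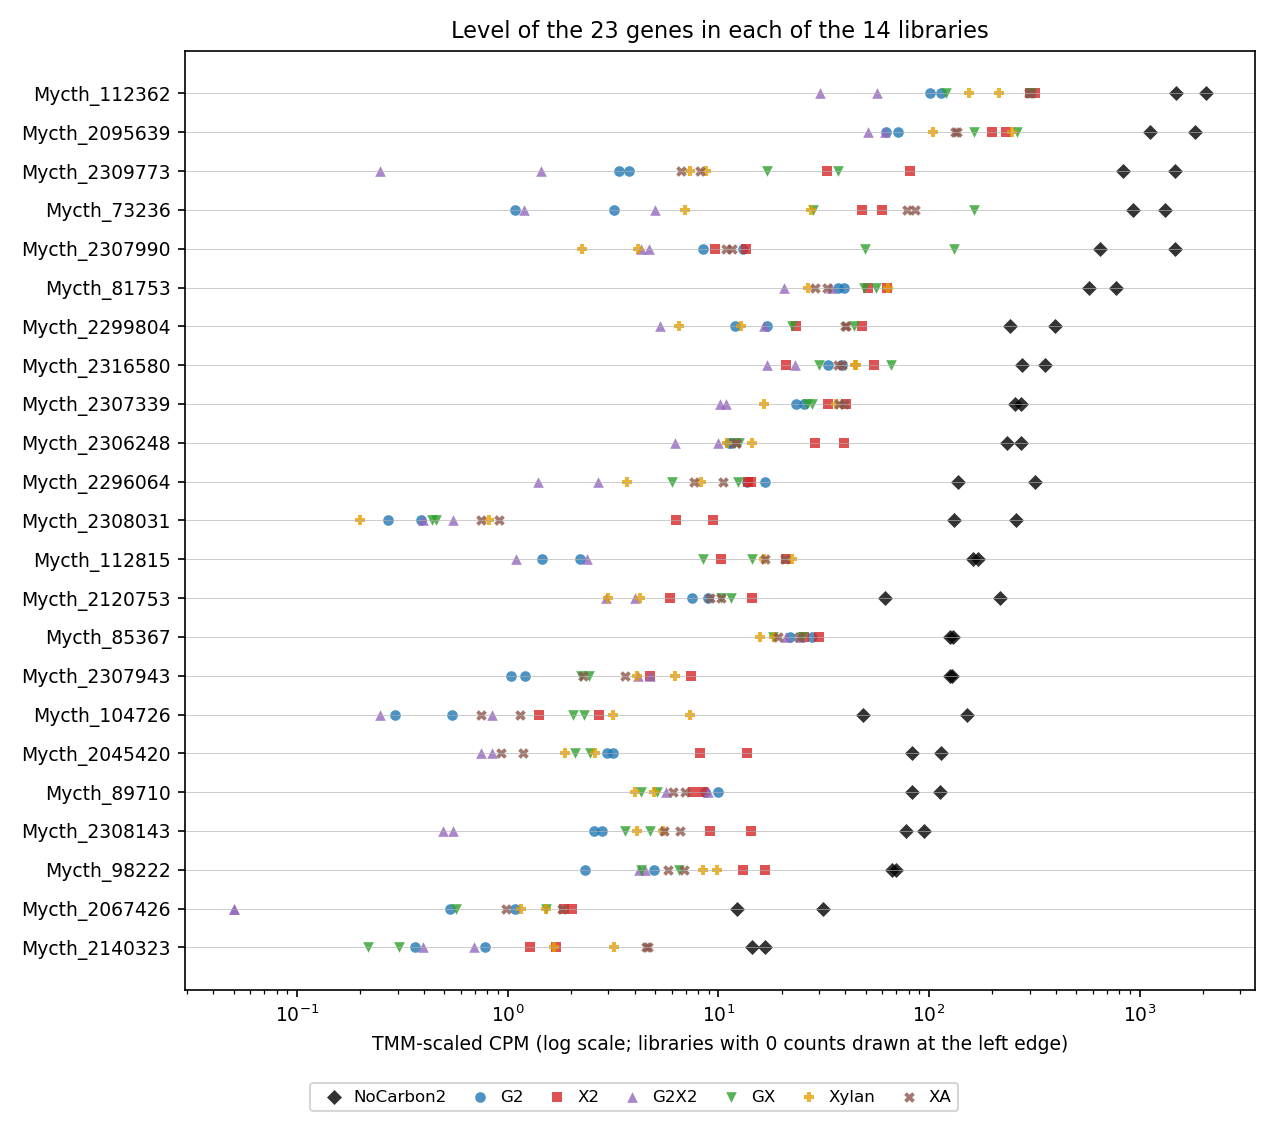
Level of each of the 23 genes in each library, as TMM-scaled CPM on a log axis, with 1 point per library and a colour and marker per group. For every gene both NoCarbon2 points lie to the right of the 12 others, and Mycth_2067426 had 0 counts in both G2X2 libraries.

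Mycth_112362 stood at 1488 and 2066 CPM in the NoCarbon2 libraries. It kept 301 and 318 CPM with xylobiose and 120.2 and 303 CPM with glucose and xylose, against 114 and 101 CPM with cellobiose and 56.5 and 30.3 CPM with both disaccharides. The gene was thus far from silent with any sugar. Mycth_2095639 behaved similarly in range, with 1123 and 1820 CPM without carbon and between 51.2 and 262 CPM in the sugar libraries.

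Mycth_2309773 stood at 829 and 1466 CPM without carbon. It stood as low as 0.249 and 1.44 CPM in the mixture of disaccharides and 3.78 and 3.39 CPM with cellobiose, while 32.9 and 81.3 CPM remained with xylobiose. In this gene the level in the mixture lay below that of either disaccharide alone. Mycth_2308031 had 132 and 258 CPM without carbon against 0.388 and 0.271 CPM with cellobiose. On plates, only xylobiose among the sugars kept it above 1 CPM, at 6.31 and 9.44 CPM. The mean without carbon was 85.4 times the mean of the 8 sugar libraries, the largest such ratio of the set, whose median was 18.0 and whose lowest was 5.27 (Mycth_85367).

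Mycth_104726 had the largest distance by the rule itself: its lower value without carbon, 48.6 CPM, was 18.0 times its highest sugar value, 2.70 CPM in X2 replicate 2. The other NoCarbon2 library held 151 CPM. Mycth_2307943 followed at a ratio of 16.8, with 129 and 125 CPM without carbon and between 1.04 and 7.45 CPM with sugar. The 2 libraries without carbon were close for this gene and 3.12-fold apart for Mycth_104726. Mycth_81753, with a ratio of 9.08, held 772 and 572 CPM without carbon and between 20.5 and 63.0 CPM with sugar.

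Mycth_2067426 had no count at all in either G2X2 library, a count of 0 that allows up to 0.0745 CPM (3 counts over the group, counting error only). The mean of its 2 libraries without carbon (12.2 and 31.4 CPM) was at least 293-fold higher than that limit. With the other sugars it stood between 0.534 and 2.02 CPM, so small counts separate these groups. Mycth_2140323, with 14.4 and 16.6 CPM without carbon, stood between 0.218 and 1.69 CPM with sugar. Both genes lie near the level limit of 10 CPM.

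At the limit of 4 times, the set ends with Mycth_98222 (a ratio of 4.01), Mycth_2316580 (4.17) and Mycth_85367 (4.19). Just outside lie Mycth_2298257 (3.94), Mycth_2302040 (3.91) and Mycth_2297595 (3.85). Of these, Mycth_2298257 stood at 14.1 and 13.9 CPM without carbon and at 14.7 and 10.8 CPM in the xylan flasks, against 2.36 and 0.79 CPM with Avicel plus xylan. The genes just outside the set thus include one as high on a polymer as without carbon. Mycth_2298086 met the limit of 4 times but missed the level limit, at 9.90 CPM in the lower library without carbon.

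The libraries without carbon differed in how high the set stood. Replicate 2 was above replicate 1 in 17 of 23 genes, where 50.4% of all 8567 genes tested had that order. The ratio of replicate 2 to replicate 1 ran from 0.742 (Mycth_81753) to 3.53 (Mycth_2120753, 61.8 and 218 CPM), with a median of 1.38 against 1.00 over all genes tested. The genes more than 2-fold apart were Mycth_2307990, Mycth_2296064, Mycth_2120753, Mycth_104726 and Mycth_2067426, which is 5 of 23 beside 11.8% of all genes. Because the rule uses the lower library, leaving out replicate 1 would have admitted 54 genes and leaving out replicate 2 would have admitted 40. All 23 are among them each time by construction, since leaving out a library can only loosen the rule.

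**Figure D2:**
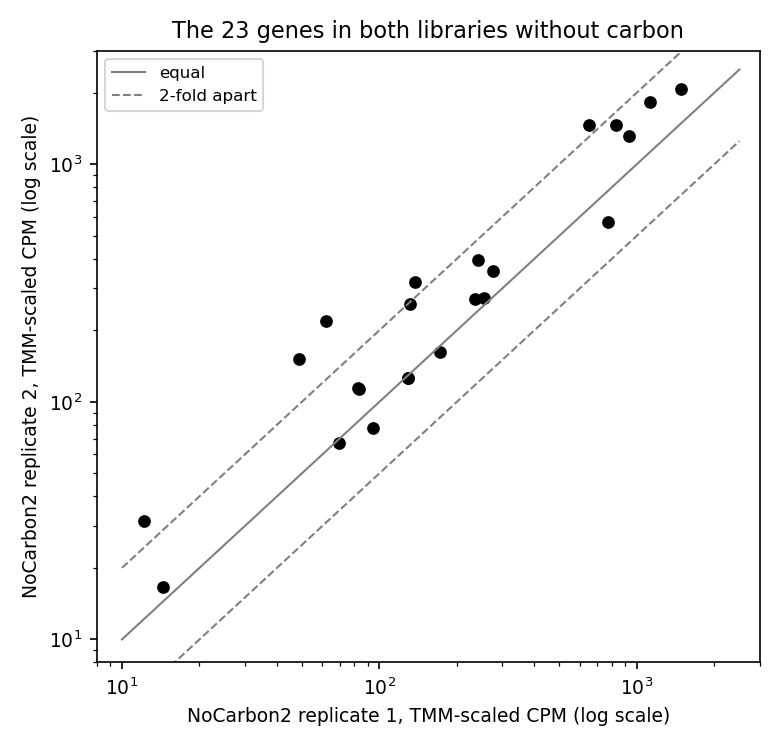
The 23 genes in NoCarbon2 replicate 1 (x axis) and replicate 2 (y axis), as TMM-scaled CPM on log axes; the solid line marks equal values and the dashed lines a 2-fold distance. Of the 23 points, 17 lie above the line of equal values and 5 beyond the upper dashed line.

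The low levels that remained with sugar differed between the sugar groups. The rule set a ceiling on all 8 of these libraries, so the order is described and not tested. By group mean, xylobiose was the highest of the 4 sugar groups in 16 of 23 genes, glucose with xylose in 5, cellobiose in 2 and the disaccharide mixture in 0. The mixture was the lowest in 15 genes, cellobiose in 5, glucose with xylose in 3 and xylobiose in 0. These ranks were not counted over all genes, so whether they are particular to the set is not shown by them. As a share of the NoCarbon2 mean, the median gene kept 9.35% with xylobiose, 6.87% with glucose and xylose, 4.47% with cellobiose and 2.49% with the mixture.

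Compared library by library, both X2 libraries lay above both G2X2 libraries in 20 of 23 genes (30.3% of all genes tested) and the opposite held in 0 (31.9%). Both X2 libraries lay above both G2 libraries in 17 genes (34.8%), with the opposite in 1 (36.2%). Both GX libraries lay above both G2X2 libraries in 17 genes (34.0%), with the opposite in 3 (36.6%). They lay above both G2 libraries in 15 genes (32.0%), with the opposite in 4 (37.0%). The mixture held 2% of each disaccharide and so more sugar in total than each other sugar group. The amount of sugar and the combination therefore cannot be told apart. Adding xylobiose to cellobiose went with a lower level than cellobiose alone in 13 genes (30.5%) and a higher one in 2 (32.6%). Other scalings of the libraries kept the direction of each of these counts, from 19 to 21 genes for X2 over G2X2 and from 15 to 17 for X2 over G2. For X2 over GX the count was 12 genes (35.5%) with 1 the other way (36.2%), and with scaling by library total alone it was 8 with 5 the other way.

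**Figure D3:**
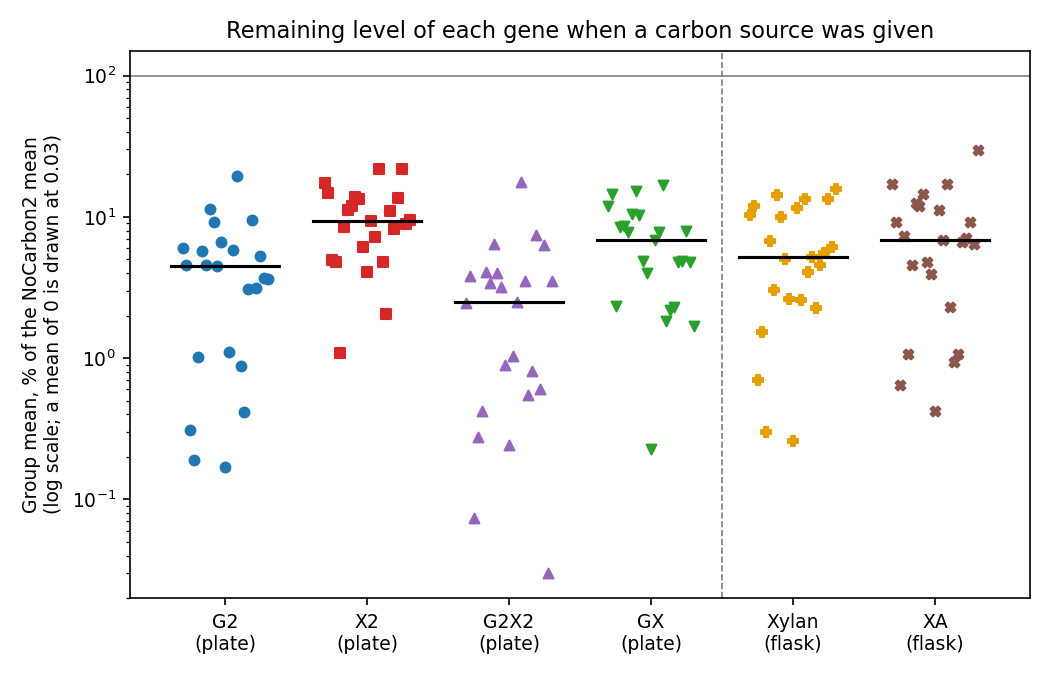
Group mean of each of the 23 genes as a percent of its NoCarbon2 mean (log axis), 1 point per gene and group; black bars are medians over the genes, and a mean of 0 (Mycth_2067426 in G2X2) is drawn at 0.03. The median is 9.35% with xylobiose and 2.49% with the disaccharide mixture, and the highest point, 29.6%, is Mycth_2140323 in the XA flasks.

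Among the genes with xylobiose highest and the mixture lowest, Mycth_2308143 held 94.1 and 77.5 CPM without carbon, 9.08 and 14.2 CPM with xylobiose, 4.75 and 3.60 CPM with glucose and xylose, 2.81 and 2.57 CPM with cellobiose and 0.548 and 0.495 CPM with both. Mycth_2045420 held 82.6 and 114 CPM without carbon, 13.7 and 8.16 CPM with xylobiose, 2.96 and 3.16 CPM with cellobiose, 2.09 and 2.47 CPM with glucose and xylose, and 0.747 and 0.842 CPM with both disaccharides. In each of these genes the mixture libraries lay below both disaccharides given alone, with no overlap between the groups.

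Mycth_98222 also kept most with xylobiose, 16.7 and 13.1 CPM beside 69.4 and 67.0 CPM without carbon. Its cellobiose libraries, at 2.33 and 4.92 CPM, overlapped those of the mixture, at 4.48 and 4.21 CPM. Mycth_2306248 kept 28.9 and 39.4 CPM with xylobiose of 235 and 272 CPM without carbon, and in the 6 other sugar libraries it stood between 6.22 and 12.6 CPM. This gene overlaps its neighbour Mycth_2306246 in the reference gene table, by an extent that was not measured. Without a stated strand setting, reads within the overlap cannot be told apart.

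Other genes had another order. Mycth_2296064, with 138 and 319 CPM without carbon, stood alike with cellobiose (13.7 and 16.6 CPM) and xylobiose (13.8 and 14.3 CPM) and lower in the mixture (1.39 and 2.67 CPM). Mycth_89710, with 83.4 and 113 CPM without carbon, was highest among the sugars with cellobiose (9.95 and 8.63 CPM) and lowest with glucose and xylose (5.10 and 4.29 CPM). Mycth_85367 was the flattest of the set: 129 and 126 CPM without carbon, and between 18.1 and 30 CPM in all 8 sugar libraries. The ratio of its highest to its lowest sugar group mean was 1.29.

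Among the 5 genes whose highest sugar group was glucose with xylose were Mycth_2307990 and Mycth_73236. Mycth_2307990 held 649 and 1466 CPM without carbon, 49.7 and 131 CPM with glucose and xylose, and between 4.31 and 13.5 CPM in the 6 libraries with a disaccharide. Mycth_73236 held 928 and 1313 CPM without carbon. With glucose and xylose it held 28.2 CPM in replicate 1 and 163 in replicate 2, so that its xylobiose libraries, at 48.1 and 59.5 CPM, fell between them. The GX libraries were more than 2-fold apart in 7 of 23 genes, beside 4.14% of all genes tested, with replicate 2 the higher in 5 of the 7. Leaving GX replicate 2 out of the rule would have given 30 genes.

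Of the members not yet described, Mycth_2299804 held 241 and 395 CPM without carbon, between 12 and 48.1 CPM with a single disaccharide or the monosaccharides, and 16.5 and 5.30 CPM with both disaccharides. Mycth_2307339 held 255 and 273 CPM without carbon, 33.0 and 40.3 CPM with xylobiose and 10.2 and 10.9 CPM in the mixture. Both had xylobiose as the highest and the mixture as the lowest sugar group by mean. Mycth_2316580 held 276 and 354 CPM without carbon; its X2 libraries, at 54.8 and 21.0 CPM, and its GX libraries, at 30.1 and 66.3 CPM, were spread enough to overlap each other and those of cellobiose.

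Mycth_112815 held 171 and 162 CPM without carbon, 10.3 and 20.9 CPM with xylobiose and 8.45 and 14.5 CPM with glucose and xylose. Where cellobiose was present, alone or in the mixture, its 4 libraries stood between 1.10 and 2.38 CPM, below all of those. Mycth_2120753 stood between 2.94 and 14.4 CPM with sugar, with the G2X2 libraries lowest. Its X2 libraries (5.87 and 14.4 CPM) overlapped those of cellobiose (8.88 and 7.5 CPM) and of glucose and xylose (10.3 and 11.5 CPM), which did not overlap each other.

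The flask libraries were not used to choose the genes. In flasks the carbon source was a polymer, and no flask culture lacked carbon, so the vessel, the medium volume and the carbon source cannot be told apart when flasks are set beside the NoCarbon2 plates. All 4 flask libraries lay below both NoCarbon2 libraries in 23 of 23 genes, beside 21.6% of all genes tested. The lower NoCarbon2 value was at least 4 times the highest flask value in 22 of 23 genes, beside 0.969% of all genes tested and 1.08% of the 6452 genes with at least 10 CPM in both NoCarbon2 libraries. These counts share the NoCarbon2 libraries with the rule, which picked genes for being high there, so they are a description of the flask levels. The exception was Mycth_2140323, at 3.21 and 1.65 CPM with xylan and 4.53 and 4.66 CPM with Avicel plus xylan, where the ratio was 3.10.

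Flask levels were mostly in the range of the sugars on plates. Both XA libraries lay above all 8 sugar libraries for 1 gene, Mycth_2140323, beside 11.8% of all genes tested. Both Xylan libraries did so for 1 gene, Mycth_104726 (7.30 and 3.15 CPM), beside 12.2%. By CPM, which also reflects gene length, the flask values were highest for Mycth_112362 (214 and 155 CPM with xylan, 299 and 306 with Avicel plus xylan) and Mycth_2095639 (248 and 104 CPM with xylan, 133 and 136 with Avicel plus xylan).

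Xylan is a polymer of xylose, and xylobiose is the disaccharide released from it. The genes differed in how these 2 forms compared, across vessels. Mycth_2308031 stood at 6.31 and 9.44 CPM with xylobiose and at 0.817 and 0.200 CPM with xylan, the latter being 14 and 4 counts. Mycth_2309773 stood at 32.9 and 81.3 CPM with xylobiose and 7.30 and 8.75 CPM with xylan. The opposite order was seen for Mycth_104726, at 1.41 and 2.70 CPM with xylobiose and 7.30 and 3.15 CPM with xylan. The ratio of the X2 mean to the Xylan mean ran from 0.394 in that gene to 15.5 in Mycth_2308031. Vessel and volume differ between these groups as well, and no test was made.

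The comparison of XA with Xylan, both in flasks at an equal total of 2% polymer, asked whether the genes change when cellulose takes the place of 1% of the xylan. The flask values were not used to choose them, but the fit estimated the spread from all 14 libraries, including those the rule used. Of the 23 genes, 3 were called higher with Avicel plus xylan, beside 14.8% of all 8567 genes tested, and 3 were called lower, beside 17.1%. The 6 calls make 26.1% of the set, against 31.9% of all genes, so the set was not called more often than the background. The split of the calls moved with the libraries used: fitted on the 4 flask libraries alone it was 5 higher and 1 lower, and without Xylan replicate 1 it was 5 higher and 3 lower. Without Xylan replicate 2 or without XA replicate 2 it was 0 higher and 1 lower, and without XA replicate 1 no member was called. The median log2 fold change was 0.34 over the 23 genes and 0.01 over all genes tested, with 13 genes above 0 and 10 below.

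The genes called higher were Mycth_73236, Mycth_2299804 and Mycth_2307990. Mycth_73236 went from 27.5 and 6.95 CPM with xylan to 85.5 and 78.2 CPM with Avicel plus xylan (log2 fold change 2.25 ± 0.80 SE, adjusted p = 0.0497, edgeR quasi-likelihood test with Benjamini-Hochberg adjustment). Mycth_2299804 went from 12.8 and 6.5 CPM to 40.1 and 40.1 CPM (2.06 ± 0.54, edgeR adjusted p = 0.0136). Mycth_2307990 went from 4.14 and 2.25 CPM to 11.6 and 10.9 CPM (1.82 ± 0.51, edgeR adjusted p = 0.0180). The XA libraries lay above the Xylan libraries without overlap in all 3 genes, and below both NoCarbon2 libraries.

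Called lower were Mycth_104726, Mycth_2045420 and Mycth_2307943. Mycth_104726 fell from 7.30 and 3.15 CPM with xylan to 1.14 and 0.745 CPM with Avicel plus xylan (-2.44 ± 0.63, edgeR adjusted p = 0.0123), which in counts was 125 and 63 against 29 and 16. Mycth_2045420 fell from 1.87 and 2.60 CPM to 1.18 and 0.931 CPM (-1.08 ± 0.34, edgeR adjusted p = 0.0282). Mycth_2307943 fell from 4.09 and 6.25 CPM to 2.28 and 3.59 CPM (-0.83 ± 0.29, edgeR adjusted p = 0.0481). The libraries of the 2 groups did not overlap in any of the 3.

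None of these 6 calls held under every setting run. Mycth_73236, Mycth_2299804, Mycth_2307990 and Mycth_2045420 were not called without Xylan replicate 2 (edgeR adjusted p = 0.260, 0.113, 0.144 and 0.200), without XA replicate 1 (0.142, 0.0555, 0.0742 and 0.0794) or without XA replicate 2 (0.122, 0.0554, 0.0619 and 0.162). Mycth_104726 was not called without Xylan replicate 1 (edgeR adjusted p = 0.0951), XA replicate 1 (0.0589) or XA replicate 2 (0.100), and Mycth_2307943 without Xylan replicate 2 (0.349) or XA replicate 1 (0.320). Fitted on the 4 flask libraries alone, Mycth_2045420 (edgeR adjusted p = 0.0715) and Mycth_2307943 (0.119) were not called. Mycth_2307943 was also not called with upper-quartile scaling (edgeR adjusted p = 0.0724), nor Mycth_73236 with DESeq2 size factors (0.0508) or without the filter on low counts (0.0544).

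The fold changes of these 6 genes kept their sign in each case, with sizes as follows. Without XA replicate 1 or 2, the log2 fold change was 2.06 and 2.06 for Mycth_2299804, 1.78 and 1.87 for Mycth_2307990, 2.19 and 2.31 for Mycth_73236, and -2.79 and -2.18 for Mycth_104726. It was -1.26 and -0.92 for Mycth_2045420 and -0.53 and -1.17 for Mycth_2307943. Without Xylan replicate 2 it was 1.64 for Mycth_2299804, 1.43 for Mycth_2307990, 1.56 for Mycth_73236, -0.83 for Mycth_2045420 and -0.50 for Mycth_2307943. Without Xylan replicate 1 it was -1.70 for Mycth_104726 and 3.57 for Mycth_73236. Over all genes the count of calls fell from 2731 to between 1203 and 2193 when a flask library was left out.

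**Figure D4:**
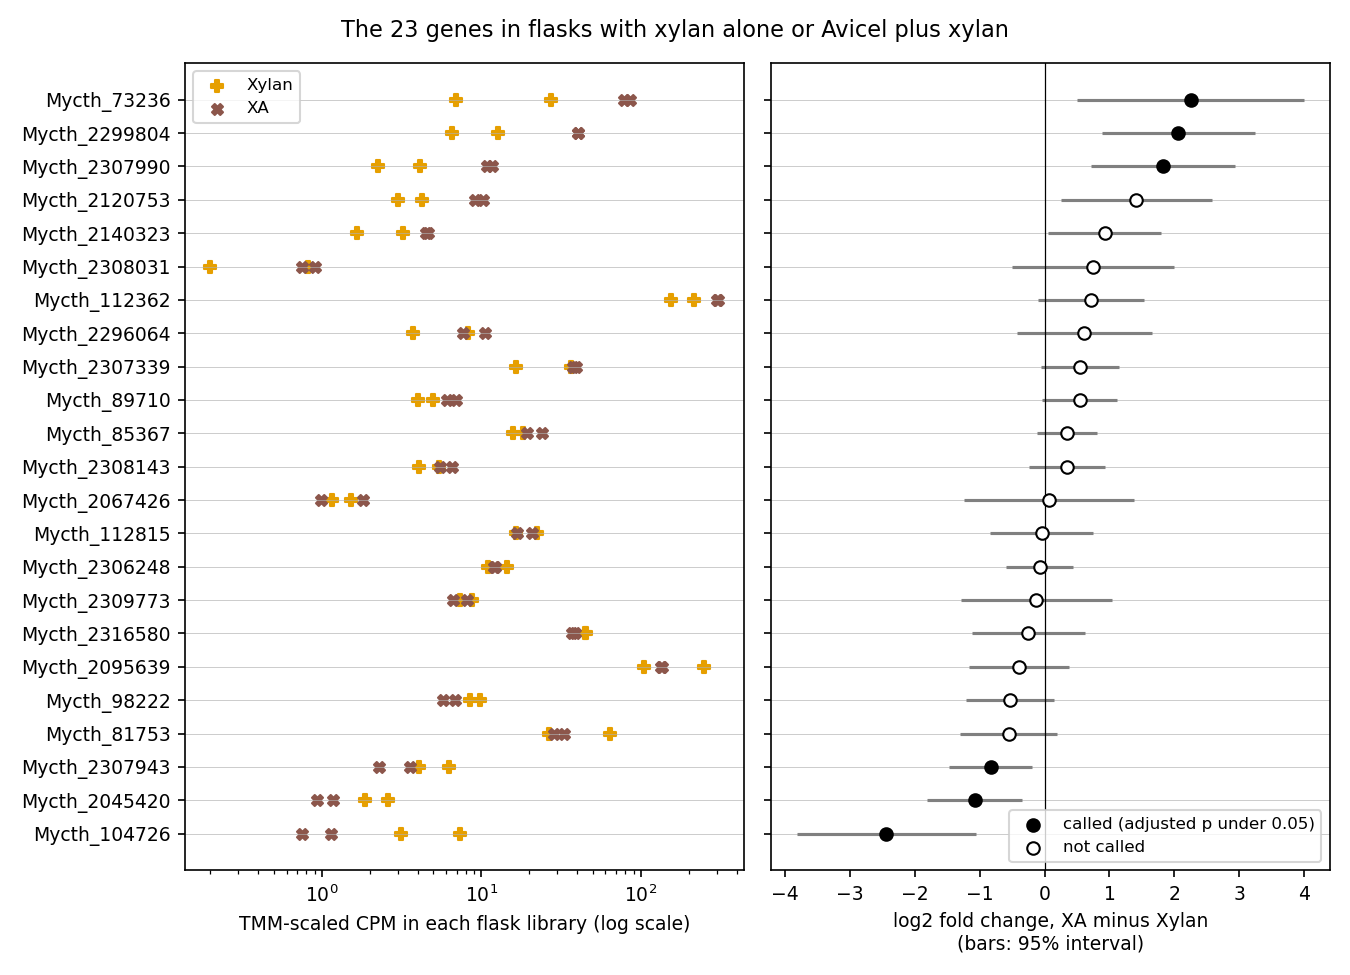
Left, level of each of the 23 genes in the 4 flask libraries as TMM-scaled CPM on a log axis; right, log2 fold change of XA minus Xylan with its 95% interval, filled where the edgeR adjusted p was under 0.05. The 3 filled points on the right side are Mycth_73236, Mycth_2299804 and Mycth_2307990, and the 3 on the left side are Mycth_2307943, Mycth_2045420 and Mycth_104726.

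For the 17 genes not called, the 95% intervals bound the difference gene by gene. Unlike the calls, they are not adjusted for the number of genes tested. Those of Mycth_2120753 (0.25 to 2.58) and Mycth_2140323 (0.05 to 1.80) were wholly positive, and some were wide, such as -1.25 to 1.37 for Mycth_2067426. Mycth_2306248 had 11.0 and 14.5 CPM with xylan and 12.1 and 12.1 CPM with Avicel plus xylan, or -0.08 as a log2 fold change (95% interval -0.59 to 0.44). Mycth_112815 had -0.05, with an interval from -0.84 to 0.75. Mycth_2120753, at 4.26 and 3.0 CPM with xylan and 10.2 and 9.08 CPM with Avicel plus xylan, had 1.42 ± 0.53 (edgeR adjusted p = 0.0614). It was called higher with DESeq2's Wald test (adjusted p = 0.0175) and by edgeR fitted on the 4 flask libraries alone (adjusted p = 0.0111). For Mycth_112362 the difference was 0.71, with an interval from -0.10 to 1.53, and it was called higher with the 4 flask libraries alone (edgeR adjusted p = 0.0248). Without Xylan replicate 1, Mycth_2140323 (1.49, edgeR adjusted p = 0.0445) and Mycth_2307339 (1.24, 0.00217) were called higher and Mycth_81753 (-1.03, 0.0221) lower.

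All 23 genes matched a locus tag of the reference gene table for assembly ASM22609v1, which was used for gene order alone since nothing used here names the build on which the reads were counted. Mycth_112815 and Mycth_104726 are direct neighbours in that order. Mycth_2299804 and Mycth_73236 are separated by a single gene, Mycth_2299806, and these 4 members lie within 30 consecutive genes. A further 6 members, from Mycth_2045420 to Mycth_2308143, lie within 202 consecutive genes, which is 26.1% of the set in 2.17% of the reference genes; that stretch was chosen after the order was seen.

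Genes beside the members were also often high without carbon. Of the 37 direct neighbours that were tested, 10 had both NoCarbon2 libraries above all 8 sugar libraries (27.0%, beside 10.4% of all genes tested). In 5 of them the lower NoCarbon2 value was at least 2 times the highest sugar value (13.5%, beside 1.48%). Mycth_39133, next to Mycth_112815, held 570 and 464 CPM without carbon and between 15.7 and 149 CPM with sugar. Mycth_2299806, between Mycth_2299804 and Mycth_73236, held 43.8 and 64.9 CPM without carbon and between 0.545 and 15 CPM with sugar.

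Mycth_2307942, next to Mycth_2307943, held 411 and 94.4 CPM without carbon, between 7.89 and 25.7 CPM with xylobiose and between 0.949 and 5.25 CPM with the other sugars. The gene beyond it, Mycth_2307937, had a ratio of lower NoCarbon2 to highest sugar value of 3.19, named here after its value was seen. Runs of 3 consecutive genes in which members stood beside such non-members were Mycth_39133 to Mycth_104726, Mycth_2299804 to Mycth_73236, and Mycth_2307937 to Mycth_2307943. The remaining 2 of the 5 neighbours were Mycth_111741, beside Mycth_81753, with 134 and 127 CPM without carbon, and Mycth_54721, beside Mycth_2067426, with 16.5 and 25.2 CPM.

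**Figure D5:**
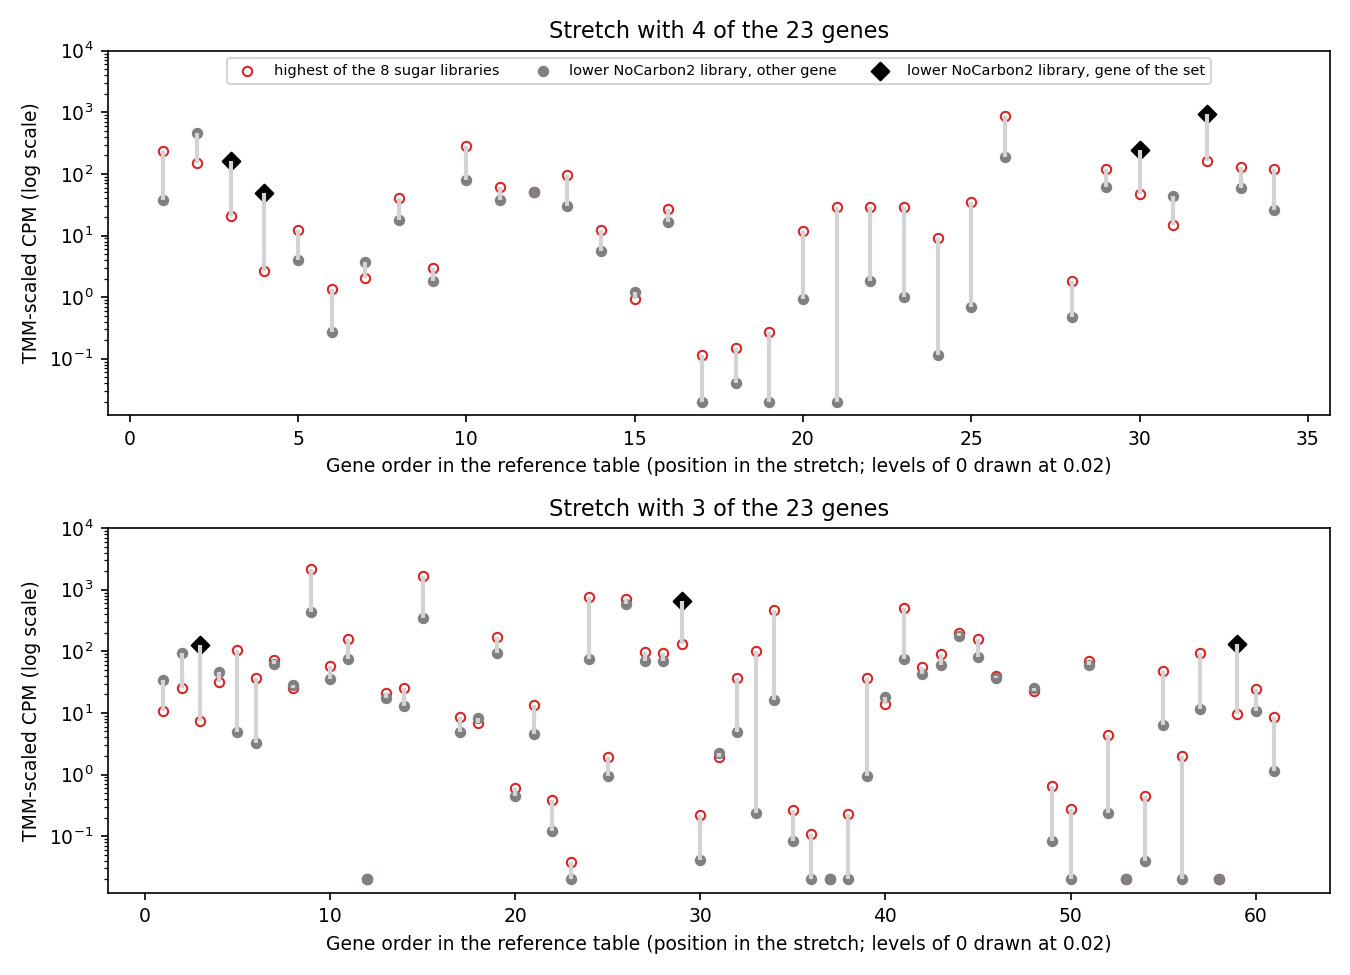
Lower NoCarbon2 level (filled) and highest sugar level on plates (open) of consecutive genes in the reference order, in CPM on a log axis, for the stretches in which 3 or more members were at most 30 genes apart; diamonds are members and levels of 0 are drawn at 0.02. In the upper panel 5 of the 30 genes from the first to the last member reach a ratio of 2, the 4 members and Mycth_2299806, and in the lower panel only the 3 members do so from the first to the last.

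The neighbours that were high without carbon were also compared between the flasks. Mycth_2299806 went from 6.89 and 2.70 CPM with xylan to 18.1 and 13.7 CPM with Avicel plus xylan and was called higher (log2 fold change 1.74 ± 0.54, edgeR adjusted p = 0.0291), as were Mycth_2299804 and Mycth_73236 on either side of it. Mycth_2307942 stood at 4.55 and 18.1 CPM with xylan and 2.09 and 1.82 CPM with Avicel plus xylan and was called lower (-2.54 ± 0.87, edgeR adjusted p = 0.0424), as was Mycth_2307943 beside it. The third gene of that run, Mycth_2307937, was not called (0.83, edgeR adjusted p = 0.271).

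Mycth_39133 went from 257 and 243 CPM with xylan to 116 and 126 CPM with Avicel plus xylan and was called lower (-1.05 ± 0.26, edgeR adjusted p = 0.0088). Next to it, Mycth_112815 stood at 22.4 and 16.4 CPM with xylan and 20.8 and 16.7 CPM with Avicel plus xylan and was not called, while Mycth_104726, on its other side, was called lower. Mycth_54721 (1.75 ± 0.53, edgeR adjusted p = 0.0251) and Mycth_111741 (0.58 ± 0.19, edgeR adjusted p = 0.0312) were called higher, and the members beside them, Mycth_2067426 and Mycth_81753, were not called. The calls of these neighbours are from the fit of all 14 libraries alone and were not followed under the other settings. Of all genes tested, 31.9% were called either way. Whether the changes of neighbours differ from each other was not tested.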

How the data were processed

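The deposited table gives raw read counts per gene for 14 libraries. Per the submitters' processing notes, the tools were TopHat2 (2.0.8b) and HTSeq (0.13.5). Build, gene annotation and strandedness were not given in the sources used here. Reads where genes overlap therefore cannot be separated, and reads of close paralogs may be shared. Groups came from the sample titles; the count table calls XA by the name AX, as the growth protocol does. Of 9110 identifiers, 9087 matched the reference table, which holds no product names.

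The analysis used edgeR 4.0.16 (R 4.3.3). CPM used TMM factors over all 9110 genes. The test of XA against Xylan used filterByExpr (minimum count 10, 8567 genes kept, 543 removed), TMM and 1 robust quasi-likelihood fit of 7 group means to all 14 libraries (7 residual degrees of freedom), two-sided, with Benjamini-Hochberg adjustment over all genes and calls at 0.05. Standard errors came from the fold change and its F statistic. On simulated counts for this comparison (8533 genes tested), 56% of 100 genes changed 2-fold and 94% of 100 genes changed 4-fold were recovered. No other gene was changed there, whereas 2731 of 8567 genes were called in the data. The p-value cutoff after adjustment therefore differs, and the rates need not hold for the data. The changed genes were drawn only from genes above a minimum level with xylan. These rates therefore do not cover the lowest members, such as Mycth_2308031 (mean 0.51 CPM with xylan). Alternatives were DESeq2 1.42.0, other scalings, no filter, flask libraries alone, a replicate block and leaving out each library.

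The members, comparisons and naming rule were chosen with earlier results of these data known. Genes named were the 15 members with the highest NoCarbon2 CPM, the extremes of each comparison, the genes at the limits and runs of neighbours; the other members are named for their patterns. A planned search for patterns in proteins and promoters, and lists by product name, was not run, since no table used here gives them.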

Additional observations from a re-analysis of the deposited data

How the results depend on the processing

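The number of genes meeting the rule was 36 with scaling by library total alone, and 46 at 3-fold and 8 at 8-fold over the highest sugar library. It was 23 to 54 when a plate library was left out, which can only keep or widen the set. The other planned settings gave 21 to 24. All 4 flask libraries stayed below both NoCarbon2 libraries in 23 genes with DESeq2 size factors and with upper-quartile scaling. Leaving out a flask or NoCarbon2 library could not lower that count, since the remaining values are unchanged, so it is no check of it. For XA against Xylan, 1203 to 2193 of all genes and 0 to 8 of the 23 were called when a flask library was left out, where the lone library of a group is assumed to vary like the others; the other settings called 2562 to 3481 and 4 to 7. The median over the set stayed positive (0.12 to 0.45). Of 230 comparisons of single genes, 188 kept direction and call, 24 lost a call, 6 gained one and 12 changed sign, all in genes not called with all libraries. The sign changed with upper-quartile scaling for Mycth_112815 (0.050) and Mycth_2306248 (0.020), and with the replicate block for Mycth_2067426 (-0.028). Leaving out single flask libraries gave -0.27 to 0.21 for Mycth_112815, -0.43 to 0.45 for Mycth_2067426, -0.90 to 0.39 for Mycth_2095639, -0.24 to 0.12 for Mycth_2306248, -0.27 to 0.021 for Mycth_2309773 and -1.03 to 0.20 for Mycth_81753. With the replicate block, 2562 genes were called, 4 of the 23; Mycth_73236 (adjusted p = 0.0611) and Mycth_2307943 (0.0627) were not. The numbers share no stated pairing, and the replicate differences of XA and Xylan correlated across genes at -0.085. The cause of these shifts was not tested. Low flask counts, such as 4 to 23 for Mycth_2308031, limit what can be seen there. The counts that order the sugars were recomputed with other scalings after the data were seen.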
